A study of Mus musculus with 18 samples.

Results

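The TAM receptors and their ligands were 5 of the 20615 genes in the deposited table: the receptors Axl, Mertk and Tyro3, and the ligands Gas6 and Pros1. They were chosen by gene name, and all 5 were among the 15789 genes with enough counts to be tested. The study sequenced RNA of bone marrow-derived macrophages (BMDMs) from female mice aged 7 to 12 weeks, in 18 samples, 3 for each of 6 groups. BMDMs were grown with medium conditioned by L929 cells, a source of M-CSF, from C57BL/6 (B6) mice or from C57BL/6.NOD-Aec1Aec2 mice, which carry the NOD intervals Aec1 and Aec2 on the C57BL/6 background and are named SjSS here for their susceptibility to Sjögren's syndrome. Control BMDMs of each strain received no treatment. CpG BMDMs received 1 µM CpG oligodeoxynucleotide, an agonist of TLR9, for 6 h. AC BMDMs received 5 apoptotic thymocytes (AC), killed with dexamethasone, per macrophage for 2 h, and were then washed and kept for a further 3 h, as the labels give it. Thymi came from mice of both strains, but which thymocytes were given to which BMDMs in this experiment was not given in the sources used here, and each AC group is macrophages together with whatever thymocyte RNA remained.

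TAM receptors are receptor tyrosine kinases. They do not touch phosphatidylserine on a dying cell themselves, but bind the bridging ligands Gas6 and protein S (the product of Pros1), which hold on to that lipid through a vitamin K dependent domain. In macrophages, Mer (the product of Mertk) is best known for the engulfment of apoptotic cells in resting and tolerant states, Axl is best known as a receptor induced by interferon and TLR ligands, and both damp TLR and cytokine signalling through SOCS proteins. Gas6 binds all 3 receptors, while protein S binds Tyro3 and Mer. Mer and Axl can also be cut from the cell surface by metalloproteases, which RNA levels do not show. The question for these genes was how their RNA responded to AC and to CpG in each strain, and whether the responses differed between strains.

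In the mouse genome build mm10 (gene ends from GENCODE M21, 1 base before those of the deposited table), Axl lies at chr7:25757273-25788705 on the minus strand, Mertk at chr2:128698956-128802894 on the plus strand and Tyro3 at chr2:119797733-119818104 on the plus strand. Gas6 lies at chr8:13465374-13494490 on the minus strand and Pros1 at chr16:62854307-62929346 on the plus strand. All 5 are protein-coding genes, and 0 of them lie on chromosome 1 or 3, which carry Aec2 and Aec1. The far end of Gas6 overlaps Tmem255b on the other strand, and an antisense gene with 11 counts over the 18 samples lies within Mertk. Whether counting used strand was not given in the sources used here, so reads of Gas6 and Tmem255b in that overlap cannot be told apart.

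The 250 bases before the RefSeq start of the 4 members that changed are shown because these genes moved together with CpG and apart with AC in SjSS BMDMs. They are from RefSeq (GRCm38.p6), 5′ to 3′ on each gene's own strand: Axl chr7:25788734-25788983 (minus), Mertk chr2:128698665-128698914 (plus), Gas6 chr8:13494536-13494785 (minus) and Pros1 chr16:62854057-62854306 (plus). Capitals mark matches to the motifs searched.
Axl: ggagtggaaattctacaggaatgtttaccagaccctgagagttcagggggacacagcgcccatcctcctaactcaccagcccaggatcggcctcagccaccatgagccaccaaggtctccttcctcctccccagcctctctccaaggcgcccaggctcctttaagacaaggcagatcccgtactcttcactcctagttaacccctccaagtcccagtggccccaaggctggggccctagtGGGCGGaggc
Mertk: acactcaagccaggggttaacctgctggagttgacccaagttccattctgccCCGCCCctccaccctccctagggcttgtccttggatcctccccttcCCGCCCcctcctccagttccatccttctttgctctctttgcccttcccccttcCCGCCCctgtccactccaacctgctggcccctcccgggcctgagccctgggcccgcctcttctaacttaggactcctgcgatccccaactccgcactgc
Gas6: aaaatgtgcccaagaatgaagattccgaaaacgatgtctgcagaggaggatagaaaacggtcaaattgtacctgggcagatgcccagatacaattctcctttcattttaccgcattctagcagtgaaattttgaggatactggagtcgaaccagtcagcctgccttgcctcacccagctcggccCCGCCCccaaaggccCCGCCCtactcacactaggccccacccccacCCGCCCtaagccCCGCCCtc
Pros1: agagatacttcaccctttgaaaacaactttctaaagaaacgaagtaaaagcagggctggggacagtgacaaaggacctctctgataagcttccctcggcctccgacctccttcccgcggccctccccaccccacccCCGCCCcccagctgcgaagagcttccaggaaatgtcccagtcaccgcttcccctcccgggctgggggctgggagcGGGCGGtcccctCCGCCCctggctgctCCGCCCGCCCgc
Both strands were searched for GGGCGG (the SP1 box, in 32.7% of 32851 promoter windows of this length) and TGANTCA (AP-1, 6.75%). Axl held 1 GGGCGG, Mertk 3, Gas6 4 and Pros1 5, the last 2 of which overlapped. The letters of the AP-1 motif were not in these windows. The RefSeq window for Tyro3 lies inside the gene as the table places it and was left out.

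The libraries held 30688288 to 57139640 counts (median 47912516). Levels are given as CPM, the counts scaled by TMM to a library of 1000000, and levels of different genes were compared only per kilobase of exon. Markers of macrophages were present in every library: all 7 listed genes were detected, with a summed level of 14830 to 23650 CPM. That sum was lower in SjSS in control (14830 to 15510 against 17420 to 18180 CPM) and with CpG (16500 to 17520 against 20800 to 23650). With AC it was higher in SjSS (17840 to 18580 against 15510 to 16470). Lyz2 made up most of it, and the means of all 7 genes went the same way as the sum in each condition. The listed markers of fibroblasts summed to 167 to 234 CPM in SjSS control, 190.4 to 238 in SjSS AC and 153 to 200.4 in SjSS CpG BMDMs, against 45.6 to 138, 82.0 to 119.9 and 41.8 to 103 in the B6 groups. All 6 of these genes were tested, and the strains' ranges of the sum did not overlap in any condition. Col1a1 and Col1a2 made up most of the sum, at means of 88.6 and 100.3 CPM in SjSS control against 36.4 and 48.1 in B6 control. Col3a1 was lower in SjSS with AC (10.8 against 13.4 CPM) and Pdgfra with CpG (1.05 against 1.14), and the remaining means were higher in SjSS. Of the 15 markers of T lineage cells, Cd28 and Cd4 made up most of the sum. The other 13 summed to 0.400 to 0.568 CPM in B6 control, 1.27 to 1.81 in B6 AC, 0.414 to 0.829 in SjSS control and 1.602 to 2.061 in SjSS AC BMDMs. In the CpG groups, which received no thymocytes, these 13 summed to 0.867 to 1.385 CPM in B6, overlapping B6 AC, and 0.791 to 1.462 in SjSS. Lck and Cd247 were the highest of the 13 in SjSS AC, at means of 0.651 and 0.604 CPM. Rag1 stood at 0.163 CPM in B6 AC and 0.0231 in SjSS AC, and at 0 in the other groups. Trac, Rag1 and Dntt were at 0 in B6 control. With AC the mean of Cd3e fell in both strains (0.0515 to 0.0401 CPM in B6 and 0.0341 to 0.0294 in SjSS). Those of Cd3d, Themis and Dntt fell in SjSS, and the other means rose. Trac stood higher with CpG than with AC, at 0.127 against 0.0265 CPM in B6 and 0.0937 against 0.0523 in SjSS. The summed endothelial markers were also higher in SjSS in each condition without overlap, at 41.2 to 42.6 CPM against 27.6 to 32.5 in control, 48.6 to 56.2 against 25.8 to 28.5 with AC and 32.7 to 40.7 against 18.4 to 21.6 with CpG. Pecam1 made up most of these sums, at means of 33.4 CPM in SjSS control and 25.5 in B6 control. The means of Pecam1, Cdh5 and Kdr were higher in SjSS in each condition. Tie1 was lower in SjSS with AC (0.0329 against 0.0956 CPM) and with CpG (0.0685 against 0.105). Dendritic markers summed to 2.63 to 3.48 CPM in SjSS AC against 1.16 to 1.42 in B6 AC and 1.90 to 2.16 against 1.33 to 1.70 with CpG, and overlapped between strains in control. With AC, Xcr1 made up most of that difference (2.13 against 0.426 CPM), and Zbtb46 was lower in SjSS (0.515 against 0.654). With CpG, Clec9a (0.568 against 0.222 CPM) and Zbtb46 (0.419 against 0.278) were higher in SjSS, and Xcr1 was lower (0.909 against 0.959). B cell markers stood at 9.41 to 26.8 CPM and neutrophil markers (2 of 5 in the table) at 1.84 to 11.6. The part of RNA from such cells in the results was not tested, and in bulk samples fewer cells of a type and less RNA per cell cannot be told apart.

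**Figure D1:**
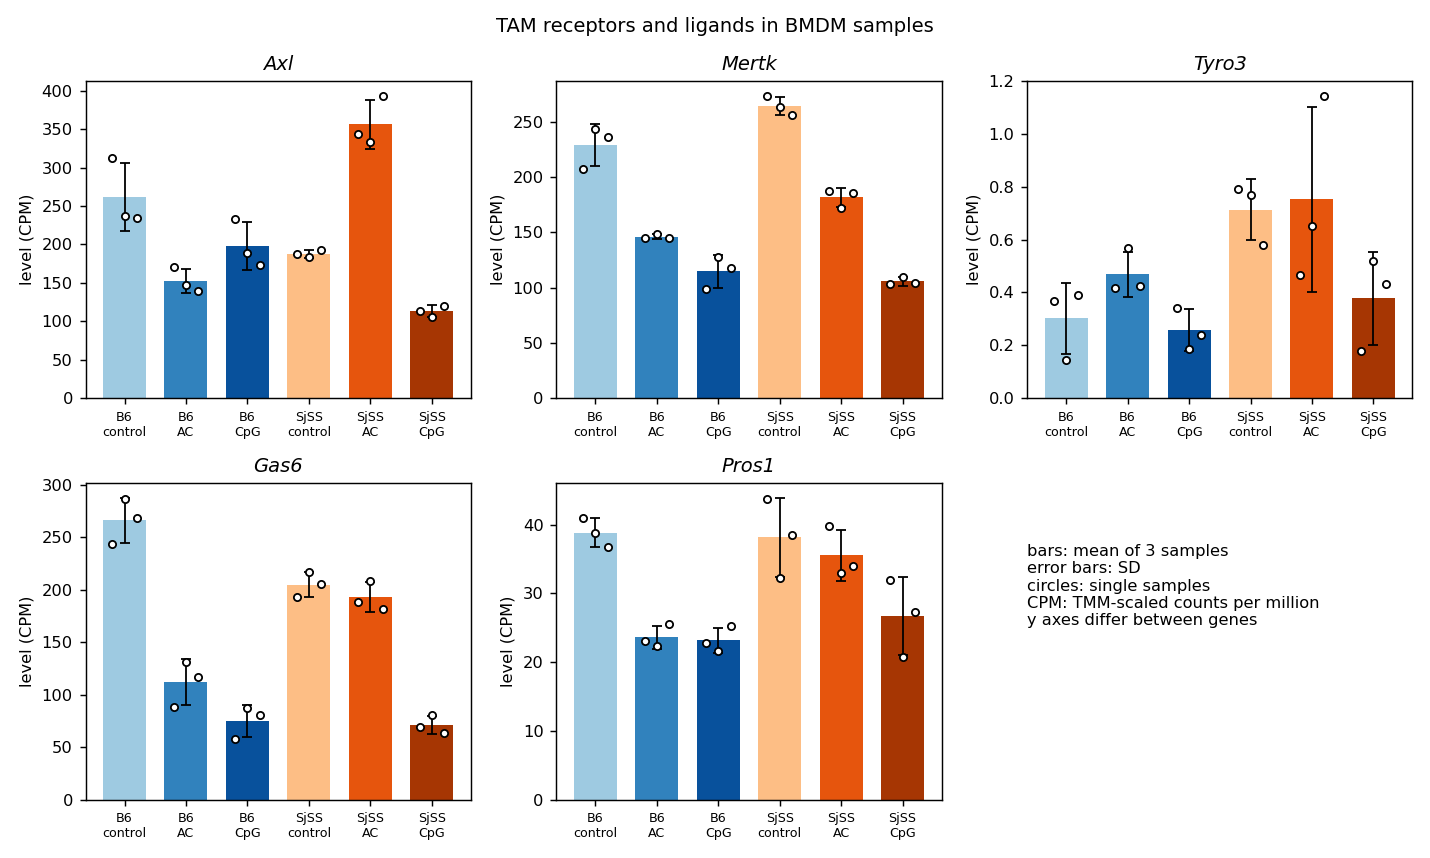
Level in CPM (y axis, from 0, with its own scale for each gene) of the 5 genes in the 6 groups (x axis), with bars for the mean of 3 samples, error bars for the SD and circles for single samples. Axl was highest in SjSS AC BMDMs, Mertk and Gas6 were highest in the control groups, and Tyro3 stayed at or under 1.14 CPM.

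Per kilobase of exon, Gas6 was the most abundant member in control BMDMs of both strains, at 104 ± 8.43 CPM per kb in B6 and 80.4 ± 4.72 in SjSS (SD, n = 3). Mertk stood at 52.8 ± 4.39 in B6 and 61.0 ± 1.97 in SjSS, and Axl at 52.0 ± 8.85 and 37.3 ± 0.965. The levels of Axl and Mertk in B6 control differed by less than their spread. Pros1 was lower, at 9.49 ± 0.516 CPM per kb in B6 and 9.33 ± 1.41 in SjSS control. Tyro3 stood at 0.0487 ± 0.0218 in B6 and 0.115 ± 0.0188 in SjSS control. Tyro3 was counted 7 to 51 times per library.

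Axl was the receptor whose response to AC turned around between strains. In B6 BMDMs its level was 313, 237 and 234 CPM in the 3 control samples and 170.2, 148 and 139 CPM in the 3 AC samples. In SjSS BMDMs it was 187, 183 and 193 CPM in control and 343, 333 and 393 CPM with AC. The groups did not overlap in either strain: every AC sample lay below every control sample in B6 and above every control sample in SjSS. Axl fell by 0.78 on the log2 scale in B6 (SE 0.11, 1.72-fold lower, adjusted p = 2.20e-05, edgeR's quasi-likelihood test, n = 3 per group) and rose by 0.92 in SjSS (SE 0.11, 1.90-fold higher, adjusted p = 9.90e-07). The difference between both responses, tested as an interaction of strain and AC, was 1.70 on the log2 scale (SE 0.16, adjusted p = 1.03e-07). Of all genes tested, 89.1% had a lower log2 fold change than Axl in the AC response of SjSS.

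CpG lowered Axl in both strains. The level was 233, 189 and 173 CPM in B6 CpG BMDMs, where the highest sample lay just below the lowest control sample, and 114, 106 and 120.4 CPM in SjSS CpG BMDMs. The change was -0.40 on the log2 scale in B6 (SE 0.11, adjusted p = 0.00519) and -0.73 in SjSS (SE 0.11, adjusted p = 2.25e-05), and the difference between these changes did not pass the test (-0.33, 95% interval -0.67 to 0.01, adjusted p = 0.259), though it passed with the replicate number as a block (adjusted p = 0.00811). Without B6 control replicate 1, the sample with the highest level among the B6 groups, the change in B6 was -0.25 and no longer passed (adjusted p = 0.0542). Compared between strains, Axl was lower in SjSS than in B6 in control BMDMs (-0.48, SE 0.11, adjusted p = 0.00612) and with CpG (-0.81, SE 0.11, adjusted p = 5.24e-05), and higher in SjSS with AC (1.23, SE 0.11, 2.34-fold, adjusted p = 4.45e-08). From the highest mean to the lowest, the groups ran SjSS AC (357 CPM), B6 control (261), B6 CpG (198), SjSS control (188), B6 AC (152) and SjSS CpG (113). Only B6 CpG and SjSS control overlapped among neighbours in that order.

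Mertk, the receptor that macrophages use to take up apoptotic cells, fell with both stimuli in both strains. In B6 BMDMs its level was 207, 243 and 236 CPM in control, 145, 148 and 145 CPM with AC and 98.8, 128 and 118 CPM with CpG. In SjSS BMDMs it was 273, 264 and 256 CPM in control, 188, 172 and 186 CPM with AC and 103, 109.8 and 104 CPM with CpG. No treated sample overlapped the control samples of its strain. With AC, Mertk fell by 0.65 on the log2 scale in B6 (SE 0.08, adjusted p = 1.82e-06) and by 0.54 in SjSS (SE 0.08, adjusted p = 5.31e-06). The difference between those 2 responses was 0.11 (95% interval -0.12 to 0.33, adjusted p = 0.488).

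With CpG, Mertk fell by 1.00 in B6 (SE 0.08, adjusted p = 1.53e-09) and by 1.33 in SjSS (SE 0.08, adjusted p = 3.85e-11). The difference between those responses was -0.33 (SE 0.11, adjusted p = 0.0802), and it passed without B6 CpG replicate 1 (-0.43, adjusted p = 0.00866) and with the replicate number as a block (adjusted p = 0.0270). In control BMDMs Mertk was 0.21 higher in SjSS on the log2 scale, which did not pass (SE 0.08, adjusted p = 0.0599). With AC it was higher in SjSS by 0.31 (SE 0.08, adjusted p = 0.00211). With CpG the strains differed by -0.12 (adjusted p = 0.300), or by -0.22 without B6 CpG replicate 1 (adjusted p = 0.0361). The groups ran SjSS control, B6 control, SjSS AC, B6 AC, B6 CpG and SjSS CpG from high to low, and only the CpG groups overlapped.

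Tyro3, the third receptor, was near the limit of these libraries. Counts were 23, 7 and 22 in B6 control, 21, 30 and 19 in B6 AC, 17, 7 and 11 in B6 CpG, 43, 26 and 32 in SjSS control, 18, 31 and 51 in SjSS AC and 8, 21 and 19 in SjSS CpG BMDMs. It passed in 0 of the 9 comparisons by edgeR, with an unadjusted p under 0.05 in 2, and in 1 by DESeq2. The largest difference was between strains in control, where SjSS stood 1.21 above B6 on the log2 scale with no overlap of the CPM values (SE 0.42, adjusted p = 0.0521). With AC its change was 0.62 in B6 (95% interval -0.29 to 1.52) and 0.09 in SjSS (-0.75 to 0.93), so changes of this width could not be told from 0 at this depth.

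Gas6, the ligand of all 3 receptors, fell with AC in B6 BMDMs but did not pass in SjSS. In B6 its level was 244, 286 and 269 CPM in control and 88.0, 131 and 117 CPM with AC. In SjSS it was 193, 217 and 205 CPM in control and 188, 209 and 182 CPM with AC. The B6 groups stood apart, while the SjSS groups overlapped. The change was -1.25 on the log2 scale in B6 (SE 0.14, 2.38-fold lower, adjusted p = 7.64e-07) and -0.09 in SjSS (95% interval -0.37 to 0.20, adjusted p = 0.609), and the difference between both was 1.16 (SE 0.19, adjusted p = 9.18e-05). In the AC response of B6, 2.89% of all genes tested had a lower log2 fold change than Gas6.

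With CpG, Gas6 had the largest change of the 5 genes in either strain. Its level was 58.1, 87.1 and 80.7 CPM in B6 and 69.7, 80.7 and 63.9 CPM in SjSS CpG BMDMs, a fall of 1.82 on the log2 scale in B6 (SE 0.14, 3.54-fold lower, adjusted p = 1.47e-09) and of 1.52 in SjSS (SE 0.14, 2.87-fold lower, adjusted p = 2.33e-08). The difference between strains in that response was 0.30 (SE 0.19, adjusted p = 0.409). Between strains, Gas6 was higher in SjSS with AC (0.78, SE 0.14, adjusted p = 9.88e-05), and the differences in control (-0.38, adjusted p = 0.0571) and with CpG (-0.07, adjusted p = 0.764) did not pass.

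Pros1, which encodes the anticoagulant and TAM ligand protein S, had the pattern of Gas6 with AC at a smaller size. In B6 its level was 40.9, 38.8 and 36.7 CPM in control, 23.0, 22.4 and 25.5 CPM with AC and 22.8, 21.6 and 25.2 CPM with CpG. In SjSS it was 43.7, 32.2 and 38.5 CPM in control, 39.8, 32.9 and 34.0 CPM with AC and 32.0, 20.7 and 27.3 CPM with CpG. The treated samples lay below control in B6, and in SjSS only the CpG samples did. Pros1 fell with AC by 0.72 in B6 (SE 0.13, adjusted p = 0.000161), its change in SjSS was -0.11 (95% interval -0.37 to 0.16, adjusted p = 0.491), and the difference between both was 0.61 (SE 0.18, adjusted p = 0.0108). With CpG it fell by 0.74 in B6 (SE 0.13, adjusted p = 5.01e-05) and by 0.52 in SjSS (SE 0.13, adjusted p = 0.00181), with a difference between strains of 0.22 that did not pass (adjusted p = 0.530). Between strains it was higher in SjSS with AC (0.59, SE 0.13, adjusted p = 0.000789). It did not pass in control (-0.02, adjusted p = 0.931) or with CpG (0.20, adjusted p = 0.296), where it passed without SjSS CpG replicate 2 (0.35, adjusted p = 0.0475).

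**Figure D2:**
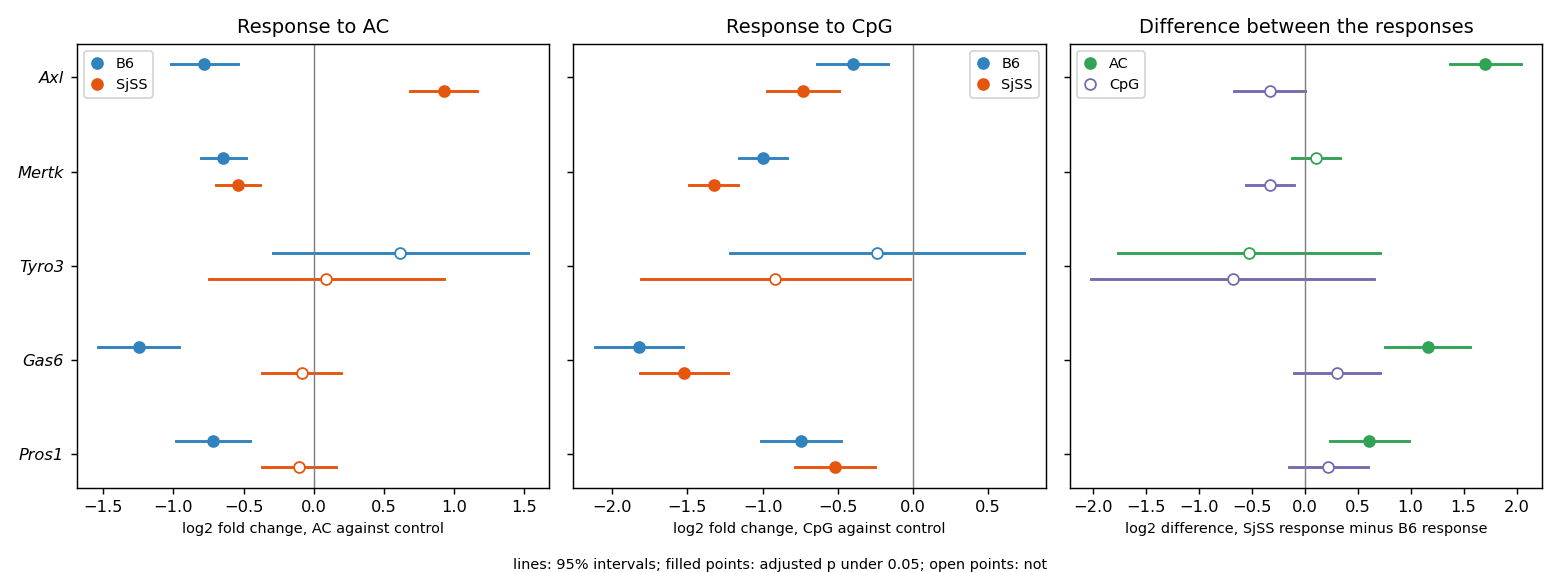
Fitted log2 changes (x axis) of the 5 genes (y axis) with AC and with CpG in each strain, and the difference of the SjSS and B6 changes, with lines for the 95% interval and filled points for an adjusted p under 0.05. Axl lies at -0.78 in B6 and 0.92 in SjSS with AC, while with CpG the 8 points of Axl, Mertk, Gas6 and Pros1 lie below 0.

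Counted over the 5 genes, AC lowered 4 in B6 BMDMs (Axl, Mertk, Gas6 and Pros1), where 18.3% of all genes tested were lower. AC in SjSS raised 1 (Axl, background 28.6%) and lowered 1 (Mertk, background 29.4%). CpG lowered 4, Axl, Mertk, Gas6 and Pros1, in B6 (background 29.8%) and in SjSS (background 26.4%). SjSS stood below B6 for 1 gene in control (Axl, background 10.6%, by edgeR, while DESeq2 called 4 of the 5 in either direction) and for 1 with CpG (Axl, background 9.57%), and above B6 for 4 genes with AC (background 24.0%). The responses to AC differed between strains for 3 genes (Axl, Gas6 and Pros1), each upward in SjSS (background 19.6%), and the responses to CpG for 0 by edgeR, where 5.85% of genes passed, 1 member had an unadjusted p under 0.05 and DESeq2 called 1. The comparisons of one strain shared its control samples. With the study's added threshold of 1.3 on the log2 scale, Gas6 remained past it with CpG in B6 (background 6.88%), Mertk and Gas6 with CpG in SjSS (background 4.45%) and Axl in the difference between AC responses (background 4.76%).

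TMM scaling sets the middle of all genes near 0. Scaling by library totals alone moved the median of all genes by -0.41 on the log2 scale in the AC response of SjSS and by -0.30 in the strain difference with AC. On that scale AC changed 1 gene upward and 3 downward in SjSS, since Gas6 (-0.50, adjusted p = 0.00277) and Pros1 (-0.52, adjusted p = 0.00123) passed as lower, and Axl still rose by 0.51. In the strain difference with AC, Mertk (0.014, adjusted p = 0.875) and Pros1 (0.29, adjusted p = 0.0543) then no longer passed, and neither did Pros1 in the difference between AC responses (0.27, adjusted p = 0.225). Relative to the shifted median of the AC response in SjSS, Axl stood at 0.94, Mertk at -0.52, Gas6 at -0.07 and Pros1 at -0.09.

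The balance of both abundant receptors moved with these changes. The ratio of Axl to Mertk, each per kilobase of exon, was 0.613 ± 0.0317 in SjSS control and 1.69 ± 0.125 in SjSS AC BMDMs (SD, n = 3), a 2.75-fold rise with no overlap. In B6 it was 0.999 ± 0.262 in control, 0.897 ± 0.0992 with AC and 1.52 ± 0.441 with CpG, and each treated group overlapped the control samples. Between B6 samples of the same number, though, the log2 ratio was higher with CpG in 3 of 3, by 0.57 to 0.64, while with AC it was higher in 1 of 3. In SjSS CpG BMDMs it was 0.927 ± 0.0871, above all control samples. The ratio of Gas6 to Pros1 fell from 11.04 ± 1.29 in B6 control to 7.63 ± 1.64 with AC and 5.23 ± 1.19 with CpG, without overlap, and from 8.81 ± 1.87 in SjSS control to 4.50 ± 1.52 with CpG. With AC in SjSS it was 8.78 ± 1.304 and overlapped control. The size of each ratio depends on the length used, here all exons together, while its changes between groups do not. Per kilobase of the longest transcript, Axl and Mertk stood at 61.3 and 53.2 CPM in B6 control and 26.6 and 24.5 in SjSS CpG BMDMs. Gas6 and Pros1 then stood at 104.4 and 11.75 in B6 control. Over the 10 exact permutation tests of these ratios the smallest p was 0.1 (0.167 after Benjamini-Hochberg adjustment), which is the smallest that 3 samples against 3 allow, so none could pass 0.05.

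**Figure D3:**
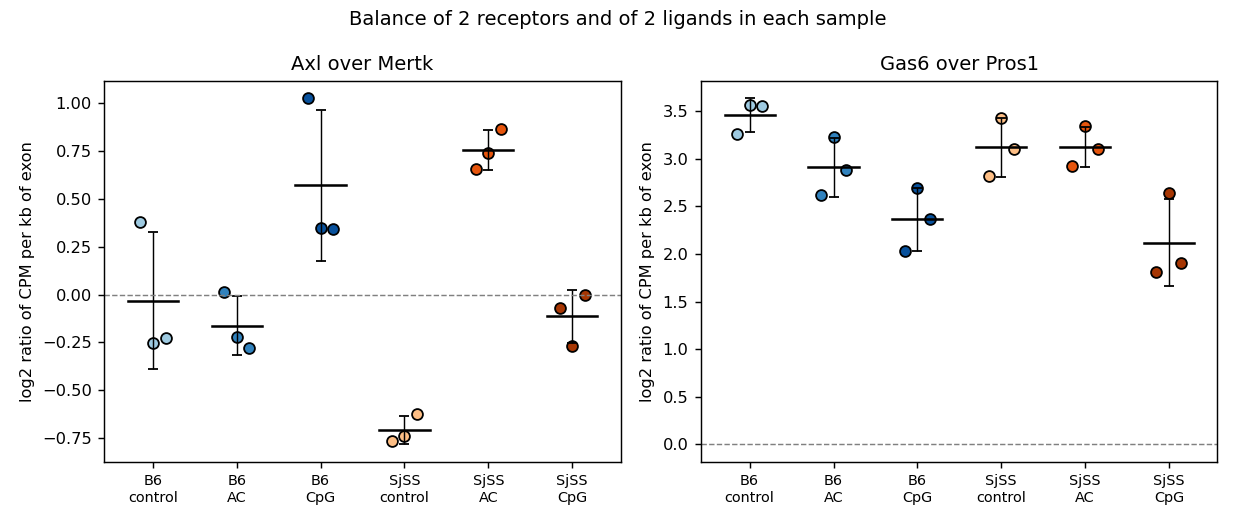
Log2 ratio of Axl to Mertk (left) and of Gas6 to Pros1 (right), each in CPM per kb of exon (y axis), in every sample of the 6 groups (x axis), with black lines for the mean and error bars for the SD. The SjSS samples move from below 0 in control to above 0 with AC for Axl over Mertk, and Gas6 per kb exceeds Pros1 in all 18 samples.

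The rest of the pathway was followed through 40 genes in 6 lists, of which 37 could be tested. AC changed 13 upward and 10 downward in B6 and 18 upward and 8 downward in SjSS, and the responses differed between strains upward for 13 and downward for 5. These were 35.1% and 27.0% of the genes tested in B6, where 20.0% and 18.3% of all genes rose and fell, and 48.6% and 21.6% in SjSS, where 28.6% and 29.4% did. The direction of these counts depended on the scaling: by library totals alone, AC changed 12 upward and 13 downward in B6 and 6 upward and 19 downward in SjSS, and the responses differed upward for 7 and downward for 14. That scaling moved the median of all genes by -0.07 with AC in B6, by -0.41 with AC in SjSS and by -0.34 in the difference between responses. The shares of all genes called on that scale are not given here, so these counts do not set the lists apart from all genes. CpG changed 14 each way in B6 (37.8% each, where 28.1% and 29.8% of all genes rose and fell) and 15 upward and 16 downward in SjSS (40.5% and 43.2%, where 27.8% and 26.4% did). By library totals it changed 9 upward and 18 downward in B6 and 12 and 18 in SjSS. The median log2 fold change of the 37 genes was -0.03 with AC in B6 and 0.20 in SjSS, against 0.00 and -0.02 over all genes tested. The counts of each list with AC below stand beside the same shares of all genes, 20.0% up and 18.3% down in B6 and 28.6% and 29.4% in SjSS.

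Of the 5 genes for shedding of receptors, 3 rose and 1 fell with AC in SjSS, and 2 rose and 1 fell in B6. By library totals alone it was 2 each way in SjSS. Adam17, the protease that cuts Mer, rose by 0.97 in SjSS (SE 0.05, adjusted p = 6.54e-12) and by 0.34 in B6 (SE 0.05, adjusted p = 3.25e-05). Rhbdf2, which encodes iRhom2, the partner that brings that protease to the surface, rose by 1.72 in SjSS (SE 0.08, adjusted p = 9.35e-13), from a mean of 73.5 to 241 CPM, while its B6 means were 110.4 and 110.2 CPM. Both responses differed between strains, by 0.63 for Adam17 (adjusted p = 1.51e-06) and by 1.72 for Rhbdf2 (adjusted p = 8.57e-10). Named after their values were seen, Adam10, another sheddase, was the one that fell (-0.55 in SjSS, adjusted p = 1.11e-06, and -0.45 in B6, adjusted p = 3.86e-05), and Timp3, an inhibitor of metalloproteases, was among those that rose (0.61 in SjSS, adjusted p = 0.0324, and 1.12 in B6, adjusted p = 0.00135). With CpG, Adam17 rose by 1.10 in both strains (adjusted p = 1.43e-12 in B6 and 2.20e-12 in SjSS). Rhbdf2 also rose with CpG, by 0.91 in B6 (adjusted p = 8.31e-09) and by 0.96 in SjSS (adjusted p = 5.81e-09). Adam10 (-0.77 in B6 and -0.68 in SjSS) and Timp3 (-1.13 and -0.87) fell with CpG, each with an adjusted p under 0.05. In control BMDMs Rhbdf2 (-0.59, adjusted p = 3.92e-05) and Adam17 (-0.19, adjusted p = 0.0156) were lower in SjSS than in B6. Timp3 was higher in SjSS in control (1.84, adjusted p = 4.31e-05), with AC (1.33, adjusted p = 0.000149) and with CpG (2.09, adjusted p = 2.16e-05). Of the 3 genes for the carboxylation of ligands, 1 passed with AC in SjSS, Ggcx, the carboxylase itself, at 4.08 to 7.01 CPM over the control and AC libraries (-0.31, SE 0.13, adjusted p = 0.0432). That call was lost by DESeq2 (-0.29, adjusted p = 0.0756), with its size factors in edgeR (adjusted p = 0.0596), with no filter on low counts (adjusted p = 0.0502), in a fit of the compared groups only (adjusted p = 0.0646) and without SjSS control replicate 1 (-0.24, adjusted p = 0.166) or 3 (-0.34, adjusted p = 0.0588) or SjSS AC replicate 1 (-0.32, adjusted p = 0.0808) or 2 (-0.20, adjusted p = 0.233).

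Of the 12 genes that carry the signal to Rac1 and the cytoskeleton, 7 rose and 2 fell with AC in B6, and 10 rose and 1 fell in SjSS. The rises in SjSS depended on the scaling: by library totals alone 1 gene rose there, Src, and 3 fell, while 6 rose and 3 fell in B6. Src, a tyrosine kinase, rose from 14.5 to 41.8 CPM in B6 (1.52 on the log2 scale, SE 0.13, adjusted p = 3.62e-08) and from 14.98 to 98.3 CPM in SjSS (2.71, SE 0.13, adjusted p = 2.09e-12), with a difference between strains of 1.20 (adjusted p = 4.10e-05). Bcar1, an adaptor of Src, rose by 0.95 in B6 and 0.75 in SjSS, with no difference between strains that passed (-0.20, 95% interval -0.81 to 0.42). By library totals alone Bcar1 in SjSS no longer passed (0.33, adjusted p = 0.167).

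Of the 5 feedback genes tested, 2 rose and 1 fell with AC in B6, and 3 rose in SjSS (2 rose and 2 fell there by library totals alone). Socs1, an inhibitor of JAK kinases that TAM receptors are known to induce, went from 3.10 ± 0.365 to 12.0 ± 1.87 CPM with AC in B6 and from 2.02 ± 0.523 to 313 ± 19.1 CPM in SjSS, a difference between responses of 5.35 on the log2 scale (SE 0.25, adjusted p = 1.27e-11). Socs3, an inhibitor of cytokine receptors that signal through STAT3, went from 11.5 ± 0.184 to 35.7 ± 6.08 CPM in B6 and from 5.46 ± 1.49 to 177 ± 12.9 CPM in SjSS (difference 3.42, SE 0.21, adjusted p = 3.16e-10). With CpG, Socs3 reached 648 CPM in B6 and 311 CPM in SjSS, and Socs1 reached 20.4 and 9.53 CPM. Neither difference between CpG responses passed (adjusted p = 0.339 for Socs1 and 0.925 for Socs3).

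Of the 6 nuclear receptors, which are known to control Mertk and its ligands in macrophages, 1 rose and 3 fell with AC in B6, and 1 rose and 4 fell in SjSS. Nr1h3 (LXRα) was the one that rose in each, by 2.02 in B6 (SE 0.13, adjusted p = 8.95e-10) and 2.03 in SjSS (SE 0.13, adjusted p = 1.37e-10), while Mertk fell in both. Ppard (PPARδ) fell by 0.65 in B6 (adjusted p = 4.15e-06) and by 1.37 in SjSS (adjusted p = 6.08e-11), a difference of -0.72 (SE 0.12, adjusted p = 8.39e-05). Of the 6 tested genes for other bridging molecules and partners of Mer, 1 rose and 3 fell with AC in B6, and 1 each way in SjSS (0 and 4 by library totals alone). Itgb5, the integrin chain that works with Mer in uptake, fell by 1.14 in B6 (adjusted p = 4.36e-11) and by 1.32 in SjSS (adjusted p = 4.59e-13). Timd4, a receptor for phosphatidylserine, was called higher with AC in SjSS (1.85, SE 0.72, adjusted p = 0.0353) at a mean of 0.419 CPM, and this call was lost without SjSS AC replicate 3 (1.49, adjusted p = 0.146), SjSS control replicate 2 (1.504, adjusted p = 0.120) or SjSS control replicate 3 (1.81, adjusted p = 0.0941), by library totals alone (1.44, adjusted p = 0.0858) and with no filter on low counts (1.86, adjusted p = 0.0634).

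**Figure D4:**
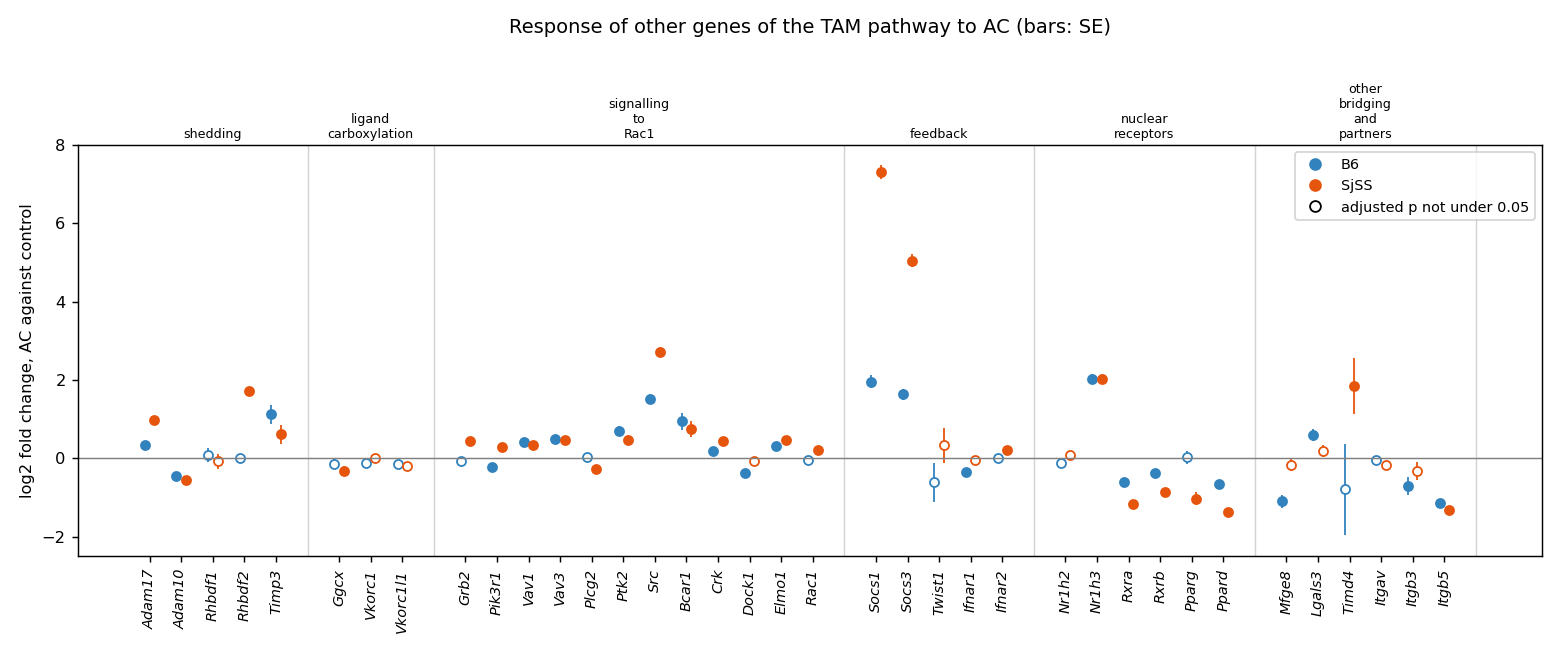
Log2 fold change with AC against control (y axis) of the 37 tested genes of the TAM pathway (x axis, grouped by list) in B6 (blue) and SjSS (orange) BMDMs, with bars for the SE and open points where the adjusted p was not under 0.05. Socs1 and Socs3 lie highest in SjSS at 7.31 and 5.05, and Nr1h3 lies at 2.02 in B6 and 2.03 in SjSS.

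The genes whose log2 CPM followed each member most closely over the 18 samples were listed by Pearson's r as a description, since all points share the 6 groups and the libraries. For Mertk these were Fndc10 (0.98), Adipor1 (0.97) and Slit1 (0.97), and for Gas6 they were Sidt2 (0.98), P2ry12 (0.97) and Tm6sf1 (0.97). Mertk and Gas6 themselves followed each other at 0.93. For Axl they were Ulbp1 (0.91), the pseudogene Rpl3-ps1 (0.91), whose reads may belong to its parent gene, and I830077J02Rik (0.90). Axl followed the other members less closely, at 0.62 for Gas6, 0.55 for Pros1 and 0.49 for Mertk. For Pros1 they were Slc2a9 (0.91), Mrc1 (0.91) and Coro7 (0.90), and for Tyro3, at its low counts, Pde3a (0.89), Erbb2 (0.87) and Ccbe1 (0.87).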

How the data were processed

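RNA-seq was analysed for 18 BMDM samples, and groups were taken from the labels. The authors aligned reads to mm10 with STAR and quantified genes in Partek, and the deposited values were estimated counts, not normalized (41.1% of values were not whole at a tolerance of 1e-06). The submitters' processing notes also list DESeq2 3.13. Libraries held 30688288 to 57139640 counts, and no 2 libraries were identical. Counts were rounded, filtered by filterByExpr and scaled by TMM in edgeR 4.0.16 (limma 3.58.1, R 4.3.3), and 1 model with 6 group means was fitted to all samples by the quasi-likelihood method, with Benjamini-Hochberg adjustment over 15789 genes in each of 9 comparisons. A gene rose, fell or changed at an adjusted p under 0.05. Intervals are 95% intervals of the fit. Log2 CPM used a prior count of 2. Ratios used two-sided exact permutation tests (scipy 1.17.1), with Python 3.11.15, numpy 2.4.6, pandas 2.3.3, and matplotlib 3.10.9 for figures.

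In simulated counts of 15408 genes with 200 changed by 2 on the log2 scale, 192 were recovered for the AC response in SjSS, and 184 where the AC responses of the strains differed. Exon lengths came from GENCODE M21. The study states 3 mice per strain, so groups of a strain may share mice, but no source used here says that a replicate number marks one. The p-values measure the spread between these samples only. The members and lists were chosen with earlier results of these data known. Of the pathway lists, 1 gene is not reported here. Named pathway genes were the 2 of each list with the largest change among those changed with AC in SjSS, and the 3 genes most like each member by Pearson's r were named. Alternatives were another normalization, library totals alone, DESeq2 1.42.0, other filters, fits of the compared groups only, a replicate block, and each sample left out. The block was the number within a strain for responses and interactions, and the number across both strains for strain differences. The same alternatives for pathway genes and lists, ratios compared by replicate number, and the T lineage sum without Cd28 and Cd4, were added after seeing the data.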

Additional observations from a re-analysis of the deposited data

Results flagged for a closer look

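Of the 5 members, 3 had responses to AC that differed between strains by a test of the difference itself (edgeR's interaction of strain and AC). Over all genes tested, 37.9% passed that test in either direction and 19.6% upward in SjSS. The SjSS response minus the B6 response was 1.70 on the log2 scale for Axl, 1.16 for Gas6 and 0.61 for Pros1. Axl moved in opposite directions, while Gas6 and Pros1 fell in B6 and did not pass in SjSS. With libraries scaled by their totals alone, the difference for Pros1 was 0.27 and did not pass (adjusted p = 0.225). Summed fibroblast markers, mostly Col1a1 and Col1a2, lay higher in SjSS in each condition (190.4 to 238 against 82.0 to 119.9 CPM with AC). Their part in these differences was not tested.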

How the results depend on the processing

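Of 644 values of the 45 member results under the alternatives, 612 kept their direction and their side of the threshold, 4 lost a call, 18 gained one, and 10 that passed in neither fit changed sign. In 27 results every value kept both. Those that did not are given here, and the cause was not tested unless stated. Requiring a log2 fold change over 1.3 as well left 0 genes with AC in B6, 0 with AC in SjSS, 1 with CpG in B6, 2 with CpG in SjSS, 0 in each strain difference and 1 in the interaction with AC, a stricter rule by construction.

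Signs of values that did not pass turned by library totals for Tyro3 with AC in SjSS (-0.32), Pros1 in the strain difference in control (0.020), Gas6 in the strain difference with CpG (0.019) and Mertk in the interaction with AC (-0.24). Leaving out 1 sample gave -0.34 to 0.33 for Tyro3 and -0.21 to 0.0033 for Pros1 with AC in SjSS, -0.13 to 0.083 for Pros1 in the strain difference in control and -0.23 to 0.042 for Gas6 in that with CpG.

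Library totals alone gave 4 changed genes with AC in SjSS (Gas6 -0.50, Pros1 -0.52 gained), Tyro3 with CpG in SjSS (-1.04), 3 in the strain difference in control (Mertk 0.25, Tyro3 1.25), and 2 in the strain difference with AC (Mertk 0.014 and Pros1 0.29 lost). They also lost Pros1 in the interaction with AC (0.27, adjusted p = 0.225), and of the named pathway genes turned Itgb5 in the strain difference with AC (-0.017, adjusted p = 0.829). DESeq2 gave 4 in the strain difference in control (Mertk 0.21, Tyro3 1.22, Gas6 -0.38) and 1 in the interaction with CpG (Mertk -0.35), and no adjusted p for Tyro3 there. No filter on low counts (Gas6 -0.39) and a fit of the compared groups only (Gas6 -0.36) each gave 2 in the strain difference in control.

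The replicate block gave 3 in the strain difference in control (Mertk 0.21, Gas6 -0.37) and 2 in the interaction with CpG (Axl -0.33, Mertk -0.33), and changed no other member call. For strain differences the block joined samples of the same number from both strains, which are different mice. The calls of Mertk and Gas6 gained in control rest on that joining. The labels do not say that a number marks one mouse: deviations correlated over 0.1 in 9 of 18 pairs of groups within a strain and 0 of 9 across strains (in all 3 pairs for control and CpG in B6 alone), and samples of a strain correlated best with their own number in 32 of 36 checks, a hint from the data only.

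Leaving out 1 sample gave 3 to 4 changed genes with CpG in B6 (Axl -0.53 to -0.25), 1 to 2 in the strain difference with CpG (Mertk -0.22 to -0.036, Pros1 0.052 to 0.35) and 0 to 1 in the interaction with CpG (Mertk -0.43 to -0.25). The counts of the other 6 comparisons did not move. Of 1412 values of named pathway genes, 1370 kept their call, 37 of them with a changed sign. Depth limits Tyro3, with 7 to 51 counts per library.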
